A study of Mus musculus with 6 samples.

Results

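The axis of interleukin-23, interleukin-17 and interleukin-22 was followed through 10 genes, taken by name from the 54532 genes of the count table: the cytokine genes Il17a, Il17f, Il17c and Il22, the subunit genes Il23a and Il12b, and the receptor genes Il17ra, Il17rc, Il17re and Il22ra1. They were measured by RNA sequencing of 3 whole colonic tumors of Tmem173fl/fl mice (AOM_WT) and 3 of Tmem173fl/flLzym-Creert2 mice (AOM_CRE, here Tmem173iΔmye), both on a C57BL/6N background. All mice had received the carcinogen azoxymethane (AOM), 3 cycles of the colitis-inducing agent dextran sulfate sodium (DSS) and then tamoxifen, so the control mice carried the floxed alleles and were given tamoxifen too. The design asks whether losing STING, the DNA-sensing adaptor encoded by Tmem173, from myeloid cells late in tumorigenesis went with a different tumor transcriptome. The inducible Cre is driven from the Lyz2 locus, which is active in macrophages, monocytes and neutrophils and in only some dendritic cells, and the other cells of the tumor keep STING.

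In this axis, interleukin-23 (IL-23) is released by dendritic cells and macrophages as a pair of the p19 subunit (Il23a) and the p40 subunit (Il12b), and p40 is also part of IL-12. IL-23 acts on Th17 cells, γδ T cells and type 3 innate lymphoid cells, which then make IL-17A, IL-17F and IL-22. IL-17A and IL-17F signal through IL-17RA paired with IL-17RC, the epithelial cytokine IL-17C signals through IL-17RA paired with IL-17RE, and IL-22 signals through IL-22R1 (Il22ra1) paired with IL-10R2. In the gut these cytokines are known for neutrophil-recruiting chemokines, antimicrobial proteins and epithelial repair, and in colitis-driven tumors for promoting growth.

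Sequencing depth was even, at 15329810 to 16533732 counts per tumor. Counts of Tmem173 itself were 1748, 2911 and 1705 in controls and 2291, 2245 and 1953 in Tmem173iΔmye tumors, so the targeted gene was not lower in whole-tumor RNA, and whether these reads cover the floxed exons was not examined. Epithelial markers dominated every tumor, with a summed level of 12653 to 16115 CPM (counts per 1e+06 counts) over 13 genes, as the labelled tissue implies. Sex was not balanced: 1 of the 3 control tumors (replicate 1) and 2 of the 3 Tmem173iΔmye tumors (replicates 1 and 2) had at least 2655 reads of 4 Y-linked genes, and the other tumors had at most 2. In bulk tumor RNA, fewer cells of a type and less RNA per cell cannot be told apart. The labels do not say whether each tumor came from its own mouse, and the p-values measure the spread between these samples only.

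Low genes were set aside with a minimum mean of 0.5 FPKM (fragments per kilobase of gene and 1e+06 fragments), which 7 of the 10 axis genes and 16426 genes in all passed. At a Benjamini-Hochberg adjusted p under 0.05, the quasi-likelihood test of edgeR called 0 of these genes (0%), and 1008 genes had an unadjusted p under 0.05. DESeq2 called 28. A second limit, after the study's own, asked for a log2 fold change of 1 or more in either direction and an unadjusted p under 0.05, and it took 2.12% of genes, 1.26% higher (207 genes) and 0.864% lower (142 genes) in Tmem173iΔmye tumors. This balance rested on single tumors, with 129 higher and 185 lower without Tmem173fl/fl replicate 2 and 128 higher and 132 lower without Tmem173iΔmye replicate 1. Below, "past the limits" refers to this second limit, which is not corrected for the number of genes tested. Il17a was the only gene of the axis past it, out of 9 with a fold change given, and it lay on the higher side. No fold change is given for Il22, or for any gene with no tumor above 3 counts in at least 1 of the groups.

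The promoters of Il17a and Il17f are shown because Il17a carries the largest difference of the axis while its neighbor on the same chromosome, Il17f, stayed near the detection limit in the same tumors. The sequences are RefSeq's on GRCm38.p6, from 250 bases before to 50 bases after the transcription start, 5′ to 3′ on the strand of the gene. Il17a is read from the plus strand, chr1:20730655-20730954, and Il17f from the minus strand, chr1:20784221-20784520. Capitals mark matches to AGGTCA (the core site bound by ROR nuclear receptors), to TGANTCA (AP-1) or to TATAAA (the TATA box), searched on both strands.
Il17a promoter: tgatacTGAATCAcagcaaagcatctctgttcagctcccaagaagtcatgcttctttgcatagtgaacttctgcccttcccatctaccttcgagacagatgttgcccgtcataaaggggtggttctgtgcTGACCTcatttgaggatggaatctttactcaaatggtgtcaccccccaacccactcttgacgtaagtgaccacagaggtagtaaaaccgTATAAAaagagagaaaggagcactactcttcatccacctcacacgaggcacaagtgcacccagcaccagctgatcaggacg
Il17f promoter: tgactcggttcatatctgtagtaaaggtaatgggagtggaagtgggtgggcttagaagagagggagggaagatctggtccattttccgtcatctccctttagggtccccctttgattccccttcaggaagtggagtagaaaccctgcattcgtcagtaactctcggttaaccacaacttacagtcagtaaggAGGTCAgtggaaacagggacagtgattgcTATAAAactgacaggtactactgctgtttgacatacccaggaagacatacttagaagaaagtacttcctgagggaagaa

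Counting the start base as 0, Il17a held an AP-1 match at -244 to -238, a ROR core site on the opposite strand at -120 to -115 and a TATA match at -31 to -26. Il17f held a ROR core site at -58 to -53 and a TATA match at -29 to -24, and no AP-1 match. Of all 32851 RefSeq promoters of this length, 16.3% held the ROR core site, 7.81% the AP-1 motif and 13.6% the TATA motif, so single matches are common, and they describe letters and not binding. Searches for a STAT motif (TTCNNNGAA, in 8.3% of promoters), an IRF motif (GAAANNGAA, in 8.56%) and the NF-kappaB motif (in 4.51%) found no match in either window. RefSeq promoters were matched for 8 of the 10 genes, not for Il23a and Il17ra, and none of the 8 held a STAT, IRF or NF-kappaB match. A short window and a single strict motif per factor can miss sites. The study itself predicted IRF3 and NF-kappaB elements on promoters of IL-12 family genes, Il12b among them.

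**Figure D1:**
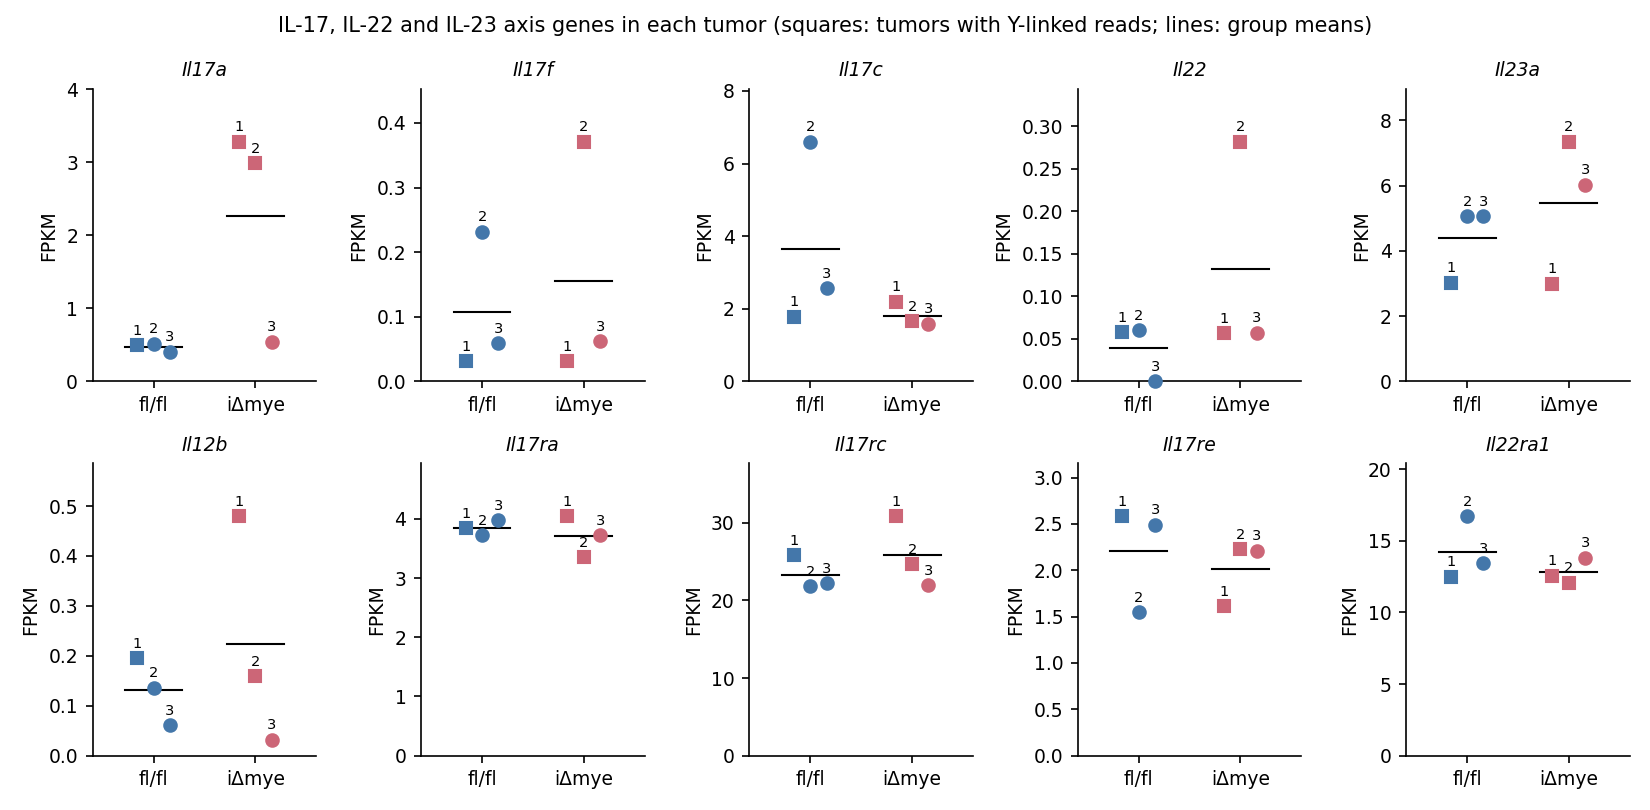
Level of each of the 10 axis genes in FPKM in every tumor, Tmem173fl/fl against Tmem173iΔmye; numbers are replicates, squares are tumors with Y-linked reads and black lines are group means. Il17a stands between 0.407 and 0.514 FPKM in the Tmem173fl/fl tumors and at 3.28, 2.99 and 0.541 FPKM in the Tmem173iΔmye tumors, while the receptor genes overlap between groups.

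Il17a (ENSMUSG00000025929, chr1:20730905-20734496, plus strand, GRCm38) encodes IL-17A, the best known product of Th17 and IL-17-producing γδ T cells. Il17a counts were 9, 9 and 8 in controls and 61, 56 and 10 in Tmem173iΔmye tumors, or 0.492, 0.514 and 0.407 FPKM against 3.28, 2.99 and 0.541 FPKM. The 3 control tumors lay close together, Tmem173iΔmye replicates 1 and 2 lay far above them, and replicate 3 lay just above the highest control. The groups did not overlap, but this rests on 10 counts against 9, a gap that counting error alone can give. Mean levels were 0.555 ± 0.0653 CPM (SD, n = 3) and 2.67 ± 1.77 CPM (SD, n = 3), and the log2 fold change was 2.25 (SE 0.67, 95% interval 0.71 to 3.80). The unadjusted p of edgeR's quasi-likelihood test was 0.01 and the adjusted p 0.742, so Il17a was past the limits and did not pass the correction. It reached the 0.5 FPKM filter through the Tmem173iΔmye tumors, since the control mean was 0.471 FPKM. Of the axis genes, 1 of 10 had groups that did not overlap, beside 12.5% of all tested genes.

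Sex was unbalanced between the groups, and the Il17a values are therefore also given within each sex. Among tumors with Y-linked reads, Il17a had 9 counts in Tmem173fl/fl replicate 1 against 61 and 56 in Tmem173iΔmye replicates 1 and 2, a log2 difference of 2.64. Among tumors without them, 9 and 8 counts stood against 10, a log2 difference of 0.24. Each of these comparisons, made after the data had been seen, has 1 tumor on one side, so only the sizes are given. They cannot decide whether the difference depends on sex. With Y-linked reads as a covariate the fold change of Il17a was 1.502 (SE 0.66), its unadjusted p was 0.0568 and its adjusted p 1 by edgeR, and it was then no longer past the limits. On log2(FPKM + 1), where low genes are drawn toward 0, limma gave 1.02.

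Il17f (ENSMUSG00000041872, chr1:20777146-20790617, minus strand) encodes IL-17F, which pairs with itself or with IL-17A. It had 1, 7 and 2 counts in Tmem173fl/fl tumors and 1, 12 and 2 counts in Tmem173iΔmye tumors. Replicate 2 was highest in both groups and the groups overlapped. Its log2 fold change was 0.54 (SE 1.02, 95% interval -1.62 to 2.71), an interval that reaches past a doubling in either direction, so a difference of that size was not detectable at this depth. Per length, the Il17a level was 15.5, 2.22 and 6.91 times that of Il17f in Tmem173fl/fl tumors and 105, 8.06 and 8.63 times in Tmem173iΔmye tumors. The ratio of 105 came from replicate 1, where 61 counts of Il17a stood beside 1 count of Il17f, while replicate 2, with 56 Il17a counts, had the highest Il17f count of the series.

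Il17c (ENSMUSG00000046108, chr8:122422020-122423639, plus strand) encodes the family member made by epithelial cells themselves. Its counts were 20, 71 and 31 in Tmem173fl/fl tumors against 25, 19 and 18 in Tmem173iΔmye tumors, or 1.78, 6.60 and 2.57 against 2.19, 1.65 and 1.58 FPKM. Tmem173fl/fl replicate 2 stood alone at the top and the remaining tumors lay close together. The log2 fold change was -1.003 (SE 0.53, 95% interval -2.22 to 0.22, edgeR adjusted p = 0.742), and it was -0.27 without that tumor and -1.33 without Tmem173fl/fl replicate 1, where it was past the limits. The same replicate 2 carried the highest summed level of 8 squamous epithelial markers, 374 CPM, against 44.5 to 121 CPM in the other tumors, and Krt5, the basal keratin, had 1252 counts there against 0 to 124 elsewhere. The part of squamous tissue in the Il17c level was not tested. Il17c overlaps Gm20388 on the same strand in GENCODE, so how reads were shared between them bears on its counts.

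Il22 (ENSMUSG00000074695, chr10:118204942-118210047, plus strand) encodes IL-22, the cytokine that acts on epithelium rather than on leukocytes. It had 1, 1 and 0 counts in Tmem173fl/fl tumors and 1, 5 and 1 counts in Tmem173iΔmye tumors. The sums of 2 and 7 counts give a ratio of 3.42 with an exact counting interval of 0.651 to 33.7 at 95%, which covers counting error only. No difference was detectable at this depth. Of its 50-base words, 41% also occur in the neighboring copy Iltifb, which had 0 counts in every tumor, so reads of the pair could be split or dropped in counting.

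Il23a (ENSMUSG00000025383, chr10:128296139-128298752, minus strand) encodes p19, the subunit particular to IL-23. It had 106, 170 and 191 counts in Tmem173fl/fl tumors and 107, 264 and 214 counts in Tmem173iΔmye tumors, or 3.02, 5.06 and 5.07 against 2.998, 7.34 and 6.03 FPKM. Replicate 1 was lowest in both groups at nearly the same level, and the groups overlapped. Means were 9.90 ± 2.60 and 12.3 ± 5.06 CPM (SD, n = 3 each), and the log2 fold change was 0.32 (SE 0.36, 95% interval -0.52 to 1.15, edgeR adjusted p = 0.832). The tumor with the most Il17a counts, Tmem173iΔmye replicate 1, had the lowest Il23a level.

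Il12b (ENSMUSG00000004296, chr11:44400063-44414033, plus strand) encodes p40, which IL-23 shares with IL-12. It had 6, 4 and 2 counts in Tmem173fl/fl tumors and 15, 5 and 1 counts in Tmem173iΔmye tumors, with both the highest and the lowest count in the latter group. Its log2 fold change was 0.78 (SE 0.89, 95% interval -1.11 to 2.66), and without Tmem173iΔmye replicate 1 it was -0.42. In FPKM, Il23a exceeded Il12b by 15.5, 37.2 and 83.6 times in Tmem173fl/fl tumors and by 6.24, 46.2 and 187 times in Tmem173iΔmye tumors. The p19 transcript was therefore the more abundant one in each of the 6 tumors, and the ratios of the groups overlapped.

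The 4 receptor genes were well above the detection limit and nearly level between the groups. Il17ra (ENSMUSG00000002897, chr6:120463247-120487559, plus strand), the shared chain, had 520, 482 and 578 counts against 557, 464 and 509, at 33.5 ± 1.30 and 32.3 ± 2.97 CPM (SD, n = 3 each). Its log2 fold change was -0.056 (SE 0.14, 95% interval -0.38 to 0.27, edgeR adjusted p = 0.929). Il17rc (ENSMUSG00000030281, chr6:113471427-113483140, plus strand), the partner for IL-17A and IL-17F, had 1078, 872 and 996 counts against 1310, 1055 and 926. Its fold change was 0.15 (SE 0.16, 95% interval -0.22 to 0.52). The groups of both genes overlapped.

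Il17re (ENSMUSG00000043088, chr6:113458484-113470758, plus strand), the partner for IL-17C, lies beside Il17rc and had 237, 136 and 245 counts against 150, 209 and 205. Tmem173fl/fl replicate 2, which had the most Il17c, had the least Il17re. Its log2 fold change was -0.14 (SE 0.26, 95% interval -0.74 to 0.47). Il22ra1 (ENSMUSG00000037157, chr4:135728172-135752140, plus strand), the chain that gives epithelium its response to IL-22, had 501, 643 and 578 counts against 512, 496 and 561, with a fold change of -0.15 (SE 0.16, 95% interval -0.51 to 0.21). For Il17ra, Il17rc, Il17re and Il22ra1 the 95% intervals stayed within 1 log2 unit of 0.

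**Figure D2:**
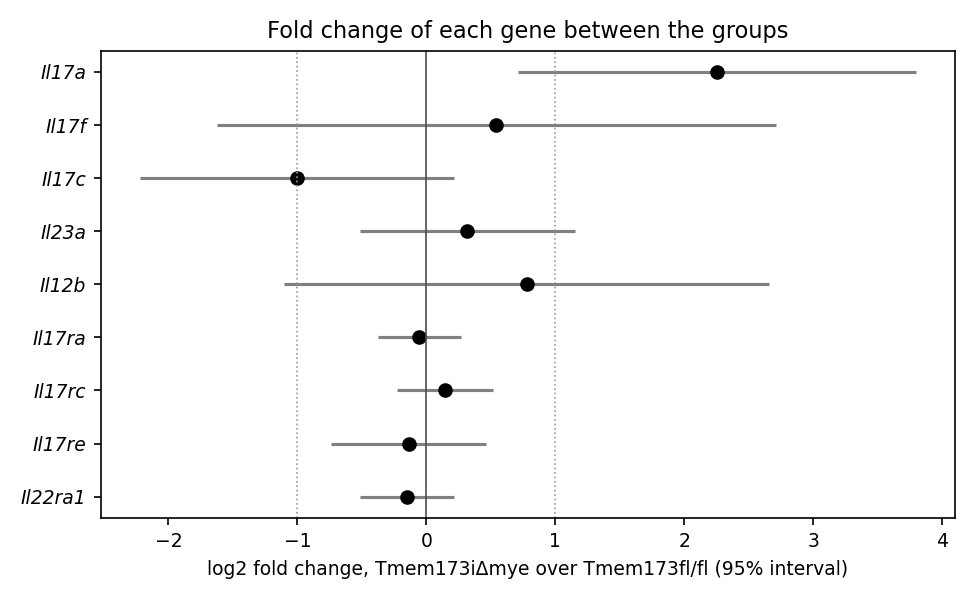
Log2 fold change, Tmem173iΔmye over Tmem173fl/fl, of the 9 axis genes with a fold change, as points with 95% intervals from edgeR's fit; dotted lines mark a log2 fold change of 1 in either direction. The interval of Il17a runs from 0.71 to 3.80, those of the 4 receptor genes are narrow and cover 0, and those of Il17f and Il12b are the widest.

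Compared per length, the axis genes fell into an order that the receptors led. Il17rc ranged from 21.8 to 30.9 FPKM over the 6 tumors and Il22ra1 from 12.1 to 16.7 FPKM, and the ranges of this pair did not overlap. Il23a (2.998 to 7.34 FPKM) and Il17ra (3.35 to 4.05 FPKM) overlapped each other, as did Il17c (1.58 to 6.60 FPKM) and Il17re (1.55 to 2.59 FPKM). Il17a followed at 0.407 to 3.28 FPKM. Il12b, Il17f and Il22 came last, with medians of 0.147, 0.0608 and 0.0573 FPKM and overlapping ranges. The highest tumor stood at 1.21 times the lowest for Il17ra, 4.16 times for Il17c and 8.05 times for Il17a. Il17rc exceeded Il17ra by 5.59 to 7.63 times, while Il17re was at 0.398 to 0.673 times Il17ra.

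Among the other genes of the 3 families, 6 passed the filter and 0 of these were past the limits. Of the other IL-17 family genes, Il17d (133, 106 and 202 against 112, 132 and 140 counts), Il17rb (58, 66 and 58 against 45, 42 and 63) and Il17rd (457, 584 and 599 against 371, 560 and 359), whose product curbs FGF signaling, passed the filter, and none was past the limits. Il17b had 0 counts throughout and Il25 at most 2. Among the IL-12 and IL-23 relatives, Il12rb1, the receptor chain that IL-12 and IL-23 share, had 22, 10 and 33 counts against 61, 41 and 28. Its log2 fold change of 1.02 (SE 0.48, unadjusted p = 0.0477, edgeR adjusted p = 0.767) was past the limits in the fit without a filter, and its mean of 0.496 FPKM fell just under the filter. The call of Il12rb1 was lost without Tmem173fl/fl replicate 1 or 2 or Tmem173iΔmye replicate 1 or 2, and in 9 of 15 alternative settings in all, the Y-linked covariate among them. Il23r, the chain particular to the IL-23 receptor, had 5, 3 and 3 against 1, 8 and 1 counts. Il12a (13, 0 and 0 against 2, 4 and 0), Il27 (1, 1 and 5 against 5, 5 and 2), Il12rb2 (2, 5 and 1 against 9, 9 and 4) and Ebi3 (15, 7 and 18 against 17, 15 and 17) were low as well.

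Around IL-22, Il22ra2, which encodes the soluble decoy receptor, had 33, 16 and 0 counts in Tmem173fl/fl tumors against 2, 11 and 1 in Tmem173iΔmye tumors. The spread among the controls alone covered the other group, and the log2 fold change of -1.82 (SE 1.01, edgeR adjusted p = 0.767) was not past the limits. Il10rb, the second chain of the IL-22 receptor, had 761, 539 and 688 counts against 910, 803 and 678, a fold change of 0.26 (SE 0.17). Il20ra (8, 9 and 7 against 17, 12 and 16 counts) and Il20rb (111, 87 and 175 against 102, 77 and 78) were not past the limits, while Il19, Il20 and Il24 had at most 3 counts in any tumor.

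Downstream of the receptors, no signaling gene was past the limits. Of 25 IL-17 signaling genes (adaptors such as Traf3ip2 and Traf6, the TAK1 and IKK kinases, NF-kappaB and C/EBP factors and RNA-stability regulators), all passed the filter and 0 were past the limits in either direction. Their median log2 fold change was -0.06, against -0.0042 for all tested genes, and 10 lay above 0 beside 49.4% of all genes. The lowest unadjusted p-values were those of Elavl1, an RNA-binding protein that stabilizes transcripts, at a fold change of 0.26 (edgeR adjusted p = 0.742), and of Traf6, the ubiquitin ligase of the pathway, at -0.35 (edgeR adjusted p = 0.742). Of 9 IL-22 and IL-23 signaling genes, 8 passed the filter and 0 were past the limits. Stat3, the main factor behind both receptors, was at 305, 313 and 261 against 297, 290 and 310 CPM. Socs1, a feedback inhibitor of cytokine receptors, had 165, 135 and 112 counts against 570, 128 and 184, highest in Tmem173iΔmye replicate 1.

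Of 28 genes known to be induced by IL-17, 24 passed the filter, 20 of these lay above 0, the median log2 fold change was 0.28, and 0 were past the limits. Areg, the EGFR ligand amphiregulin, came closest among them at 790, 388 and 477 counts against 1544, 881 and 665 (log2 fold change 0.88, SE 0.36, edgeR adjusted p = 0.742). Lcn2, an iron-sequestering antimicrobial protein, had 3052, 2618 and 2154 counts against 4070, 3898 and 1813. It was higher than in any control in the Tmem173iΔmye tumors with 61 and 56 Il17a counts, and lowest of all in the one with 10. Lcn2 was picked out after its values had been seen, and its relation to Il17a was not tested. The neutrophil-recruiting chemokine gene Cxcl1 had 208, 279 and 233 counts against 713, 270 and 152, with only replicate 1 standing out. The matrix protease gene Mmp3 had 50, 97 and 161 counts against 541, 82 and 205, and Steap4, a metalloreductase, went the other way at 2335, 1908 and 1790 against 1384, 1721 and 1618, and neither was past the limits.

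Il6, which is both an IL-17 target and an inducer of Th17 cells, was under the filter at 3, 4 and 5 counts against 57, 2 and 13. Its log2 fold change of 2.56 (SE 0.86, edgeR adjusted p = 0.661 in the fit without a filter) was past the limits and was 0.89 without Tmem173iΔmye replicate 1, where the call was lost, as it was with limma at a pseudocount of 1 or 0.1. Of 8 cytokine genes that bear on Th17 cell formation, Il2 among them, 5 passed the filter. Of these, 3 lay above 0 and the median log2 fold change was 0.05, with Tgfb2 at -0.65 (SE 0.41). Only Il1b, which encodes IL-1β, was past the limits among these 5, at 320, 280 and 277 counts against 1743, 518 and 352 (log2 fold change 1.56, SE 0.54, edgeR adjusted p = 0.742). Its groups did not overlap, which held for 12.5% of all tested genes. The call of Il1b was lost without Tmem173fl/fl replicate 2 or 3 or Tmem173iΔmye replicate 1, with a fold change of 0.56 without the last. It was also lost with Y-linked reads as a covariate (1.07, unadjusted p = 0.0926, edgeR adjusted p = 1) and with limma on log2(FPKM + 1) or log2(FPKM + 0.1).

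Of 27 genes known to respond to IL-22, 25 passed the filter, 18 of these lay above 0 and the median was 0.14. Saa3, an acute-phase protein gene, was past the limits at 618, 468 and 948 counts against 4546, 901 and 1015 (log2 fold change 1.67, SE 0.61, edgeR adjusted p = 0.742). Its call was lost in turn without Tmem173fl/fl replicate 1 or 2 or Tmem173iΔmye replicate 1, with a fold change of 0.50 without the last. With Y-linked reads as a covariate (1.32, unadjusted p = 0.102, edgeR adjusted p = 1) and with limma at either pseudocount Saa3 was not past the limits. S100a14, an epithelial calcium-binding protein gene, was at a fold change of 0.66 and the mucin gene Muc1 at -0.89, both short of the size limit. The antimicrobial lectin genes Reg3b (3139, 695 and 477 against 2170, 1404 and 120 counts) and Reg3g (5293, 1732 and 892 against 4150, 1269 and 517 counts) varied several-fold within each group. Retnlb, the goblet cell product RELMβ, had 64, 10 and 12 counts against 421, 46 and 32, and the groups overlapped.

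**Figure D3:**
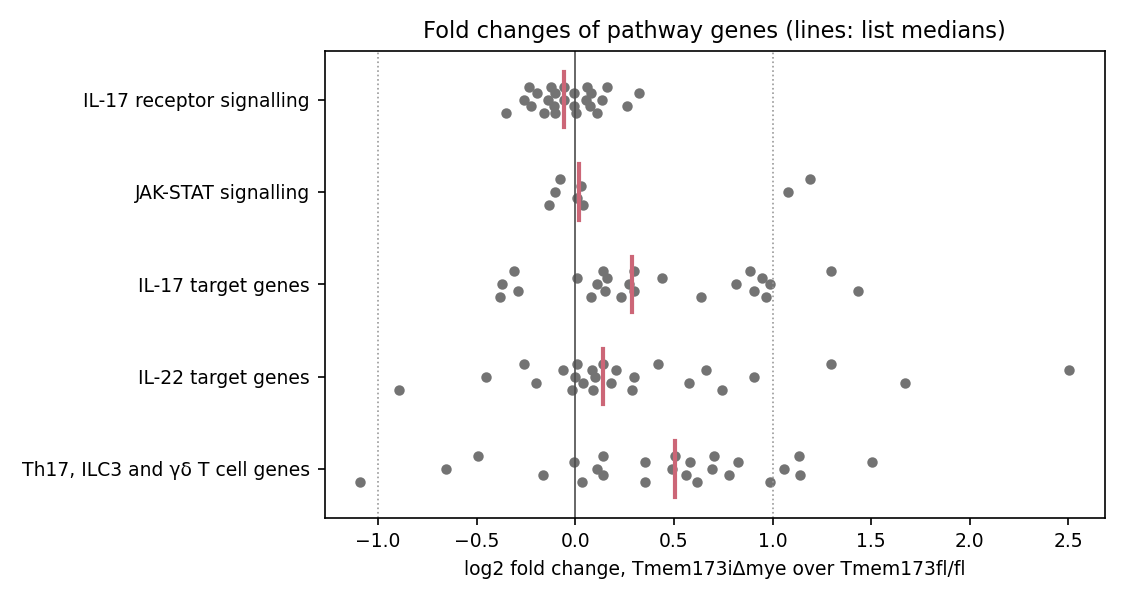
Log2 fold change, Tmem173iΔmye over Tmem173fl/fl, of the genes that passed the filter in 5 gene lists around the axis, 1 point per gene, with the median of each list. The 25 IL-17 signaling genes sit around -0.06, the 24 IL-17 targets around 0.28 and the 25 genes of IL-17-producing lymphocytes around 0.51.

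Markers of the lymphocytes that make these cytokines lay above 0 more often than below it. Of 27 genes of Th17 cells, type 3 innate lymphoid cells and γδ T cells, 25 passed the filter, 20 of these lay above 0 and the median log2 fold change was 0.51. The summed level of the list, at 193 to 311 CPM in Tmem173fl/fl and 210 to 277 CPM in Tmem173iΔmye tumors, overlapped. Tcrg-C1, a constant region of the T cell receptor γ chain, was past the limits with 15, 8 and 34 counts against 31, 85 and 45 (log2 fold change 1.51, SE 0.58, edgeR adjusted p = 0.742). Its call was lost without Tmem173fl/fl replicate 1 or 2 or without Tmem173iΔmye replicate 2, where the fold change was 1.02, and with Y-linked reads as a covariate. Its reads can be shared with the near-identical γ constant regions, which makes its count uncertain. Trdc, the δ chain constant region, picked out here after its values had been seen, had 40, 19 and 54 counts against 54, 124 and 57. Its groups tied at 54 counts and were apart only after scaling, at 3.24 CPM in Tmem173fl/fl replicate 3 against 3.41 CPM in Tmem173iΔmye replicate 1.

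Trac, the α chain constant region, had 47, 58 and 36 counts against 116, 75 and 63, also without overlap (log2 fold change 0.82, edgeR adjusted p = 0.742). The tumors therefore differed in which chain was high. Tmem173iΔmye replicate 1, with 61 Il17a counts, had the most Trac and 31 Tcrg-C1 counts, whereas replicate 2, with 56 Il17a counts, had the most Tcrg-C1 and Trdc. The part of T cell content in the Il17a level was not tested. Ahr, the ligand-activated factor that IL-22 production needs, was at 881, 844 and 1361 counts against 565, 826 and 803, a log2 fold change of -0.49 (SE 0.21, edgeR adjusted p = 0.742) with no overlap and short of the size limit. Of the 25 lymphocyte genes that passed the filter, 3 had groups apart on the higher side and 1 on the lower side. Over all tested genes, 12.5% had groups that did not overlap.

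**Figure D4:**
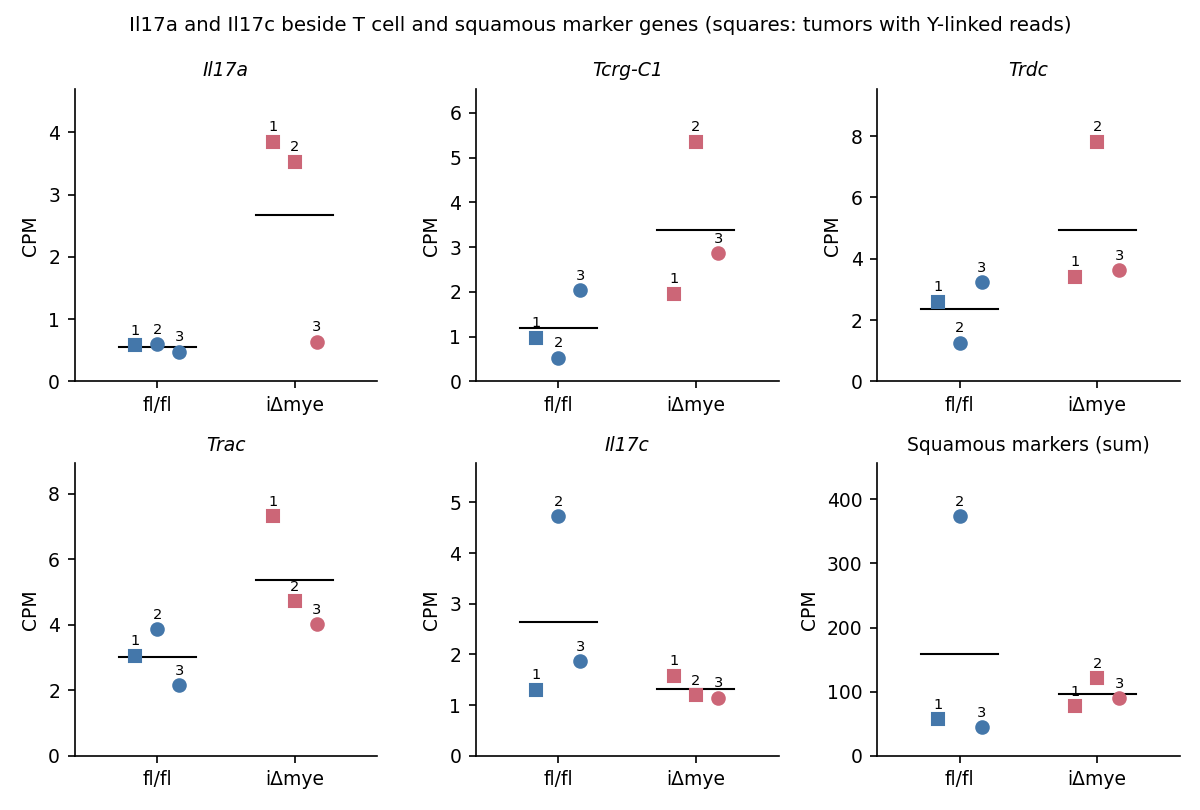
Level in CPM of Il17a, Tcrg-C1, Trdc, Trac and Il17c and the summed level of 8 squamous markers in every tumor; numbers are replicates, squares are tumors with Y-linked reads and black lines are group means. Il17a is high in Tmem173iΔmye replicates 1 and 2, Tcrg-C1 and Trdc peak in replicate 2 and Trac in replicate 1, and Il17c peaks in Tmem173fl/fl replicate 2 together with the squamous sum of 374 CPM.

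Among the cells that release IL-23, dendritic cell markers had a summed level of 146 to 230 CPM in Tmem173fl/fl and 184 to 274 CPM in Tmem173iΔmye tumors over 14 genes. None of the 8 markers that passed the filter was past the limits, and 7 lay above 0. Batf3, a factor of type 1 dendritic cells, was the exception at 40, 10 and 53 against 42, 36 and 23 counts (log2 fold change -0.02). In the fit without a filter, 872 of 30939 genes were past the limits. Under the filter, Clec9a (4, 6 and 13 against 15, 35 and 16 counts) and Xcr1 (12, 3 and 3 against 30, 20 and 7), which mark conventional type 1 dendritic cells, and Clec10a (15, 5 and 12 against 20, 29 and 23) were past them at fold changes of 1.52, 1.63 and 1.17 (edgeR adjusted p = 0.767 each, in the fit without a filter). The call was lost for Clec9a without Tmem173fl/fl replicate 1 or Tmem173iΔmye replicate 2. For Xcr1 it was lost without Tmem173fl/fl replicate 2 or 3 or Tmem173iΔmye replicate 1 or 2, and for Clec10a without replicate 2 or 3 of either group. Xcr1 and Clec10a also lost it with the Y-linked covariate, with DESeq2 and with limma at either pseudocount, and Clec9a with limma. Another dendritic cell gene, Cd209a, met the limits in the fit but had 0, 0 and 0 counts against 1, 9 and 0, so no fold change is given. Macrophage markers summed to 662 to 964 against 634 to 1017 CPM and neutrophil markers to 106 to 239 against 139 to 427 CPM, with 0 past the limits in either list. The highest neutrophil sum was in Tmem173iΔmye replicate 1, the tumor with the most Il17a, Il1b, Cxcl1 and Saa3 counts, and the part of neutrophil content in these values was not tested. Of the structural marker lists, 1 of 7 smooth muscle genes was past the limits (Des, -1.01, lost without replicate 1 or 3 of the controls or replicate 1 or 2 of the Tmem173iΔmye tumors). Of 7 fibroblast genes Dpt was past them at 1.08 (edgeR adjusted p = 0.742, DESeq2 adjusted p = 0.00695), and its fold change was 0.96 without control replicate 2 and 0.97 without Tmem173iΔmye replicate 1, just short of the size limit. Likewise, of 6 squamous genes that passed the filter Krt4 was past them (-1.15, lost without control replicate 2 or 3 or Tmem173iΔmye replicate 1 or 2). With the Y-linked covariate the fold changes were -0.96 for Des, 0.98 for Dpt and -0.70 for Krt4, none past the limits.

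The tested genes whose pattern over the 6 tumors lay nearest to Il17a were Igkv12-46 (13, 6 and 2 against 49, 31 and 12 counts), Draxin and Phf11b. Their mean absolute differences of centered log2(CPM + 1) from Il17a were 0.235, 0.241 and 0.247. Near to Il23a were Ngfr and Tmod2 at 0.0686 and 0.0817, and nearest to Il22ra1 were Cops3, Trp53bp2 and Snord43 at 0.0161, 0.0200 and 0.0242.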

How the data were processed

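Total RNA of 6 tumors was poly(A)-selected and sequenced. Per the labels' processing notes, the authors used CASAVA 1.8, fastp, HISAT2 2.0.5 on GRCm38 and featureCounts 1.5.0-p3. The deposited table holds raw read counts per gene and FPKM, which equals the counts divided by gene length and by DESeq2 size factors. The strand setting of the counting is not given in the sources used here. The authors' group means, fold changes and p-values in the same table were not used.

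The group was the only term of a quasi-likelihood fit (edgeR 4.0.16 in R 4.3.3, TMM scaling), made on the 16426 genes whose mean FPKM was 0.5 or more. Il17f and Il12b and other genes under the filter were read from a fit of all 30939 genes with counts. CPM used TMM library sizes. Depth, at 15329810 to 16533732 counts per tumor, left genes under about 10 counts imprecise. The script was checked on simulated counts. Alternatives used DESeq2 1.42.0, limma 3.58.1 on log2(FPKM + 1), other scalings, other filters, covariates and left-out tumors.

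The members and gene lists were chosen with earlier results of these data known. Named in the text are the 10 members, every gene of the 3 family lists, up to 3 genes of lowest p and those past the limits in the other lists, and the 3 genes nearest to Il17a, Il23a and Il22ra1, of which 1 is not reported here. Traf3ip2, Stat3, Lcn2, Cxcl1, Reg3b, Reg3g, Retnlb, Trdc, Batf3 and Krt5 were added for their role after their values had been seen.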

Additional observations from a re-analysis of the deposited data

How the results depend on the processing

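Over 15 alternative settings, 6 of which leave out 1 tumor, 127 of 135 fold changes of the 9 axis genes kept their direction and their side of the limits. Il17a stayed past the limits in 14 of 15, lost them with Y-linked reads as a covariate, and ranged from 1.89 to 2.72 when a tumor was left out, with a lowest adjusted p of 0.282 (DESeq2) over all settings. Il12b reversed to -0.037 with the Y-linked covariate. With 1 tumor left out, the fold changes ran from -0.42 to 1.28 (Il12b), -1.11 to 1.68 (Il17f), -0.13 to 0.010 (Il17ra), -0.0019 to 0.25 (Il17rc), -0.34 to 0.0007 (Il17re), -1.33 to -0.27 (Il17c), 0.042 to 0.61 (Il23a) and -0.23 to -0.023 (Il22ra1), so directions near 0 rest on single tumors. The number of axis genes past the limits, 1, was 0 with the Y-linked covariate and 1 to 2 with a tumor left out, Il17c being the second without Tmem173fl/fl replicate 1. The count over all genes, 349, was 872 without a filter, 136 with limma on log2(FPKM + 1), 211 with the Y-linked covariate and 218 to 636 with a tumor left out (218 without Tmem173fl/fl replicate 3 and 636 without replicate 1). With the replicate number as a block it was 377 and Il17a was at 1.997 (edgeR adjusted p = 0.442). Same-numbered tumors had deviations correlated at 0.315, 0.0085 and 0.154. Their mean was 0.159, against a mean of -0.0793 for tumors of different numbers. The tumors numbered 1 both had Y-linked reads and those numbered 3 both lacked them, while those numbered 2 differed. Whether the numbers mark a pairing, and the part of sex in these correlations, was not tested. Depth limits Il22, Il17f and Il12b, whose counts lie between 0 and 15. It also limits Il17a, which had 9, 9 and 8 counts in the controls and 10 in Tmem173iΔmye replicate 3.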
